A study of Homo sapiens with 24 samples.

Results

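Interferon-stimulated genes (ISGs) were examined in libraries labelled as 3 triple-negative breast cancer (TNBC) cell lines. The set was a fixed list of 39 gene symbols out of 66659 symbols listed in any of the 4 expression tables. It was chosen by name and not by level, but with earlier results of these data known. All 39 were listed for Hs578T, for HCC70 and for the KIF20A depletion experiment, and 37 were listed for the KIF20A overexpression experiment, where MX2 and DDX58 were not analysed here. DDX58, which encodes the RNA sensor RIG-I, is written RIGI in newer annotations.

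Poly-A RNA was sequenced from 24 libraries, 3 replicates for each of 8 conditions, which the labels call biological triplicates. Unmodified Hs578T and HCC70 cells were sorted by flow cytometry into breast cancer stem-like cells (BCSCs), which the study's methods define as CD24-CD44+ and ALDH+, and non-BCSCs, which lack both phenotypes. Cells labelled MDA-MB-231 carried a control sgRNA (sgCtrl) or a KIF20A sgRNA, and in a separate experiment the empty control vector (EV) or a construct labelled KIF20A overexpression. The depletion libraries are numbered SG1 to SG3 in their titles, which do not say whether the numbers mark guides or replicates. They are read here as 3 replicates of the first guide (sg1), as the column names of the deposited table and the study's methods give it. KIF20A encodes a mitotic kinesin. Constructs were delivered by lentivirus with puromycin selection, so the sgCtrl and EV cells had also been infected and selected. Each experiment is also a batch of its own in the labels, so cell line and batch cannot be told apart.

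ISGs are switched on when interferons bind their receptors on the cell surface. The receptor kinases then activate a complex that contains STAT2 and IRF9, which binds a short promoter element called the interferon-stimulated response element. Many of the encoded proteins block the entry, replication or release of viruses, and in tumor cell lines a share of them is often expressed without added interferon.

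The labels were first set against known genes. KIF20A was higher in BCSCs of Hs578T (217 ± 2.54 against 297 ± 25.6 TPM) and of HCC70 (71.4 ± 2.69 against 125 ± 3.48 TPM). The study picked KIF20A from genes that differed between these same sorted fractions in both lines. Its rise in BCSCs is therefore no independent check of the fraction labels. The KIF20A level was 161 ± 10.9 CPM in sgCtrl and 119 ± 27.0 CPM in sg1, a difference that did not pass the test (adjusted p = 0.69, limma). The study assessed depletion in MDA-MB-231 cells by immunoblot of the KIF20A protein, which cannot be read from RNA libraries. KIF20A RNA was 123 ± 20.9 CPM in EV against 838 ± 542 CPM in the libraries labelled KIF20A overexpression (SD, n = 3 each). Those 3 libraries stood apart from EV in more than KIF20A. CD44 was 642 ± 135 CPM in EV against 0.557 ± 0.591 CPM in them, while CDKN2A and IRS4 were at 0 in every EV library and reached 276 to 353 and 1219 to 1750 CPM. All 8 markers of mesenchymal TNBC lines were lower, and 4 of 5 markers of embryonic kidney were higher. These values go against the cell line label that the libraries share with EV. In every comparison of the 2 groups, an effect of the construct and a difference between cell lines therefore cannot be told apart. Summed levels of 6 leukocyte markers, of which 4 were listed, stayed at 1.5 to 5.7 CPM in EV against 0.751 to 1.07 CPM in the libraries labelled overexpression. In Hs578T, PTPRC, CD79A, CD14 and LYZ were under 1 TPM in every library. CD68 was at 112 ± 4.59 TPM in non-BCSCs of this line against 106 ± 10.4 TPM in BCSCs. In HCC70, PTPRC, CD3E, CD79A and LYZ were under 1 TPM in every library, while CD14 and CD68 were above it.

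Promoters of the ISGs were searched for the core of the response element, GAAANNGAAA on either strand, in windows that run from 250 bases before to 50 bases after each gene's first listed start (RefSeq, GRCh38.p14). Windows were found for 32 of the 39 genes. IFIT2, IFITM2, MX2, OAS2, OASL, IRF7 and USP18 had no window. The motif was present in 20 of the 32 windows (62.5%), against 996 of 27305 symbols (3.65%). With every listed start of a gene counted, the shares were 68.8% and 4.38%. Of 38 matches, some of which overlap each other, 37 began upstream of the start, and 14 genes had more than 1 match. A different element, TTCNNNGAA, which is bound after interferon-gamma signaling, was present in 10 windows (31.2%, against 7.88% of all symbols). GAAANNGAAA was absent from the windows of IFI35, OAS1, STAT2, IRF1, IRF9, DDX58, HERC6, RSAD2, XAF1, SAMD9L, PARP9 and CMPK2. The following 160 bases before the start are shown for some genes that the results below turn on, with matches of GAAANNGAAA in capitals. Genes whose 160 bases touch an exon of a protein-coding transcript are not shown, among them BST2, IFITM1, XAF1, SAMD9 and OAS3. SAMD9L is shown as a gene with no match.
ISG15, chr1:1013337-1013496, plus strand: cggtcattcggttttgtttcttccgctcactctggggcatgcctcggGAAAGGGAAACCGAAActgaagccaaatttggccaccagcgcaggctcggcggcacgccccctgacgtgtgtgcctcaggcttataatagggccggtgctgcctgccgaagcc
IFITM3, chr11:320861-321020, minus strand: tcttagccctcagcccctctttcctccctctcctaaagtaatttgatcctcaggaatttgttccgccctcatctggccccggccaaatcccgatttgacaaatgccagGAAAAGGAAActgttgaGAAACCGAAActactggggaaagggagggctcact
IFI44, chr1:78649629-78649788, plus strand: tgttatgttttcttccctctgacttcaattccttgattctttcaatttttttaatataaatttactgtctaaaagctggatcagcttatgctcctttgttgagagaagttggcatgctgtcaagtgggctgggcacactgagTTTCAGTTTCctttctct
IFI44L, chr1:78620288-78620447, plus strand: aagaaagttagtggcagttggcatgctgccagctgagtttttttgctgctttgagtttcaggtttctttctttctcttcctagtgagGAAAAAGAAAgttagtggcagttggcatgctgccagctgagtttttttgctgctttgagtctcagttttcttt
EPSTI1, chr13:42992242-42992401, minus strand: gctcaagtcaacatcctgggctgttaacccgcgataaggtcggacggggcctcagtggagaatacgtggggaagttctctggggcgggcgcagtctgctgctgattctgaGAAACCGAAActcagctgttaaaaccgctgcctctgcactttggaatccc
PARP14, chr3:122680679-122680838, plus strand: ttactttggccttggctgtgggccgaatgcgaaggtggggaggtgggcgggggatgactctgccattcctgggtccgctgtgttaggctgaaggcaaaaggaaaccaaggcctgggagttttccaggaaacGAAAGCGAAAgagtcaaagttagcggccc
SAMD9L, chr7:93148386-93148545, minus strand: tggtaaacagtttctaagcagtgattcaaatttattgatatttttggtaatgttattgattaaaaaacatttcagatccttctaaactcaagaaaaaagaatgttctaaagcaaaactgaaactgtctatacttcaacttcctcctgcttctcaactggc
In ISG15 the 2 matches overlap, in IFI44 the match lies on the other strand, and IFI44L has a further match just before the bases shown. In IFITM3 a pair of matches lies within 52 bases of the start. The match in PARP14 begins 29 bases before the start, and that in EPSTI1 begins 50 bases before it.

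**Figure D1:**
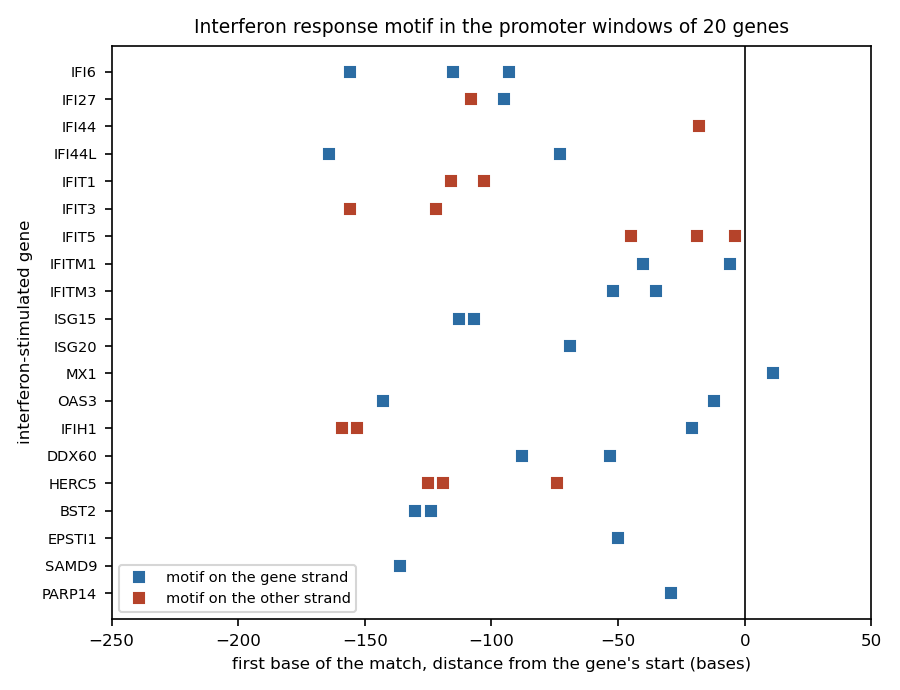
Positions of GAAANNGAAA in the promoter windows of the 20 ISGs that hold it. The x axis gives the distance of the first base of each match from the gene's start in bases, and color gives the strand. In 19 genes all matches begin upstream of the start, and in MX1 the match begins 11 bases after it.

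Levels of the ISGs differed between the sorted lines. The 2 tables were scaled separately, so the values are set side by side without a test. In Hs578T non-BCSCs the ISGs of highest level were IFITM3, a membrane protein that blocks viral entry (433 ± 17.9 TPM), IFI6, a mitochondrial and endoplasmic reticulum protein (74.1 ± 3.95 TPM), and PARP14, a mono-ADP-ribosyltransferase (50.6 ± 2.08 TPM). In HCC70 non-BCSCs they were IFI27, also a mitochondrial protein (802 ± 84.5 TPM), BST2, the tetherin that holds virions on the cell surface (424 ± 75.7 TPM), and IFI6 (344 ± 65.0 TPM). The median over the 39 ISGs was 6.86 to 7.64 TPM in the non-BCSC libraries of Hs578T and 38.1 to 40.4 TPM in those of HCC70. Means were higher in HCC70 for 36 of 39 ISGs, with a median ratio of 4.54. Over the 34 ISGs with a mean of at least 1 TPM in both lines it was 31 genes and a median ratio of 4.36, beside 55.1% of 11714 genes and a median ratio of 1.1 by the same minimum. IFI27 was at 2.27 ± 0.414 TPM in Hs578T, a ratio of 353. The exceptions were IFITM3 (ratio 0.587), IFI35 (0.596) and IFIT5 (0.989), and STAT2, IRF1 and MX2 were at like levels in both lines.

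In Hs578T, ISGs were lower in BCSCs than in non-BCSCs. Of 34 ISGs that averaged at least 1 TPM across the 6 libraries, 12 passed the test and all 12 were lower, with differences of -0.96 to -0.22 on the log2(TPM + 1) scale (limma on all genes, Benjamini-Hochberg adjusted p under 0.05). Of 13324 genes tested, 7.15% passed and 4.26% passed as lower. The difference was below 0 for 32 of the 34, with a median of -0.21, against a median of -0.01 and 54.6% below 0 over all genes tested. The 3 BCSC libraries lay outside the range of the 3 non-BCSC libraries for 20 of the 34, all lower, while 29.0% of all genes tested had groups that did not overlap and 17.0% had them lower. The 5 ISGs under the minimum were OAS1, OAS2, IRF7, HERC5 and RSAD2, at group means of 0.0279 to 0.99 TPM. In bulk RNA, fewer cells that express a gene and less RNA per cell cannot be told apart.

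**Figure D2:**
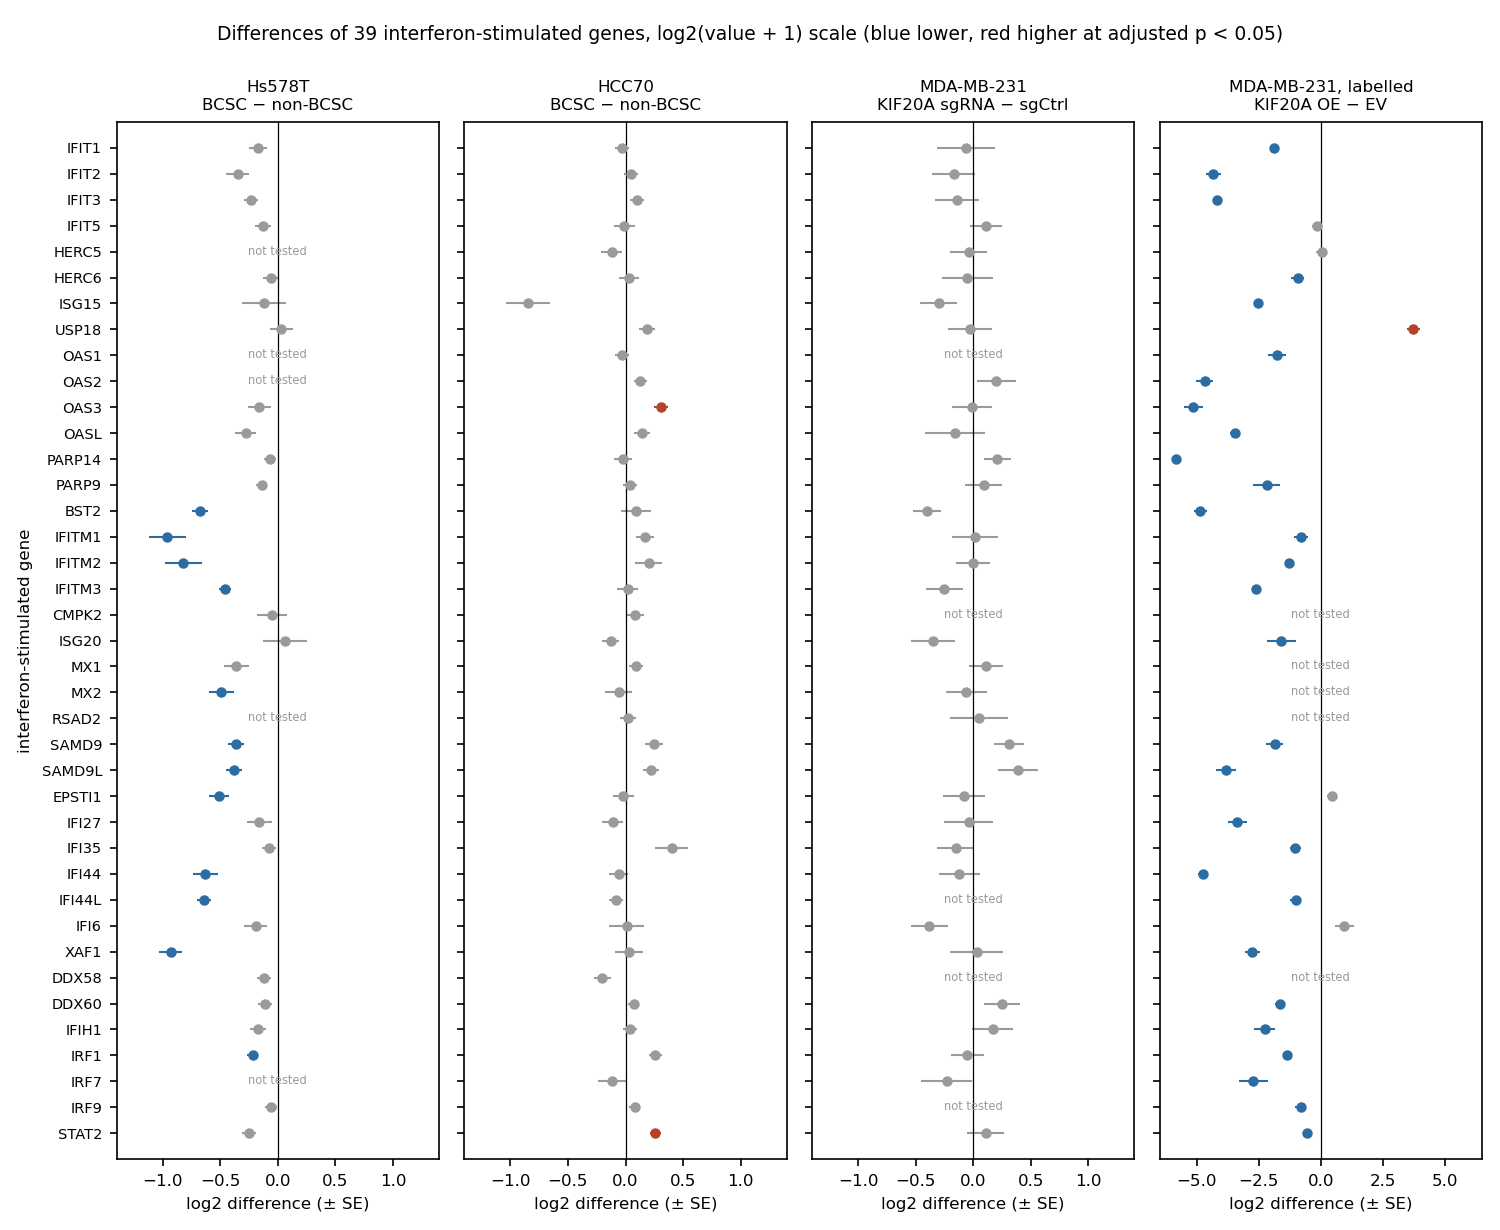
Log2 differences (± SE from limma) of the 39 ISGs in the 4 comparisons, ordered by role on the y axis, on the scale of log2(value + 1), with a wider x axis for the libraries labelled KIF20A overexpression. Blue and red points passed at an adjusted p under 0.05 as lower and higher. Lower points stand at 12 genes in Hs578T and at 29 in the libraries labelled overexpression, while HCC70 has 2 higher points and the depletion experiment has none.

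The membrane restriction factors, which act where viruses enter or leave the cell, fell together in Hs578T BCSCs, 4 of 4. IFITM1 read 13.2, 16.7 and 16.4 TPM in non-BCSCs against 9.01, 5.5 and 8.14 TPM in BCSCs. The groups did not overlap, and the log2 difference was -0.96 ± 0.16 (SE, adjusted p = 0.014). IFITM2 read 15.5, 17.1 and 17.4 TPM in non-BCSCs against 10.2, 6.54 and 10.7 TPM in BCSCs (log2 difference -0.82 ± 0.16, adjusted p = 0.021). IFITM3, at more than 10 times the level of the other two, read 425, 421 and 454 TPM against 311, 310 and 323 TPM (log2 difference -0.46 ± 0.05, adjusted p = 0.002). The sequences of these 3 genes are so alike that reads may be split between them. Their sum was 465 ± 19.2 TPM in non-BCSCs against 332 ± 9.82 TPM in BCSCs. BST2 read 20.7, 17.3 and 19.9 TPM in non-BCSCs against 11.7, 11.3 and 12.1 TPM in BCSCs, groups well apart (log2 difference -0.68 ± 0.07, adjusted p = 0.0021).

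XAF1, an apoptosis-associated factor, read 5.85, 6.41 and 4.94 TPM in non-BCSCs against 2.43, 2.41 and 2.71 TPM in BCSCs, a mean ratio of 0.439 (log2 difference -0.93 ± 0.10, adjusted p = 0.0021). XAF1 shares 2535 exon bases with a transcript of the opposite strand, and the strand setting of the counting was not given in the sources used here. The neighboring genes IFI44 and IFI44L, which limit viral replication, fell by like amounts. IFI44 read 19.0, 15.8 and 14.8 TPM against 11.6, 10.2 and 9.2 TPM (log2 difference -0.63 ± 0.11, adjusted p = 0.015). IFI44L read 7.27, 6.86 and 6.77 TPM against 4.08, 3.98 and 4.3 TPM (log2 difference -0.64 ± 0.06, adjusted p = 0.002). Replicates of IFI44L varied little, and its p was among the smallest of the 34. EPSTI1, named for its induction in epithelium by stroma, read 3.62, 2.91 and 3.18 TPM against 2.02, 1.97 and 1.91 TPM (log2 difference -0.51 ± 0.09, adjusted p = 0.017). Its groups did not overlap.

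**Figure D3:**
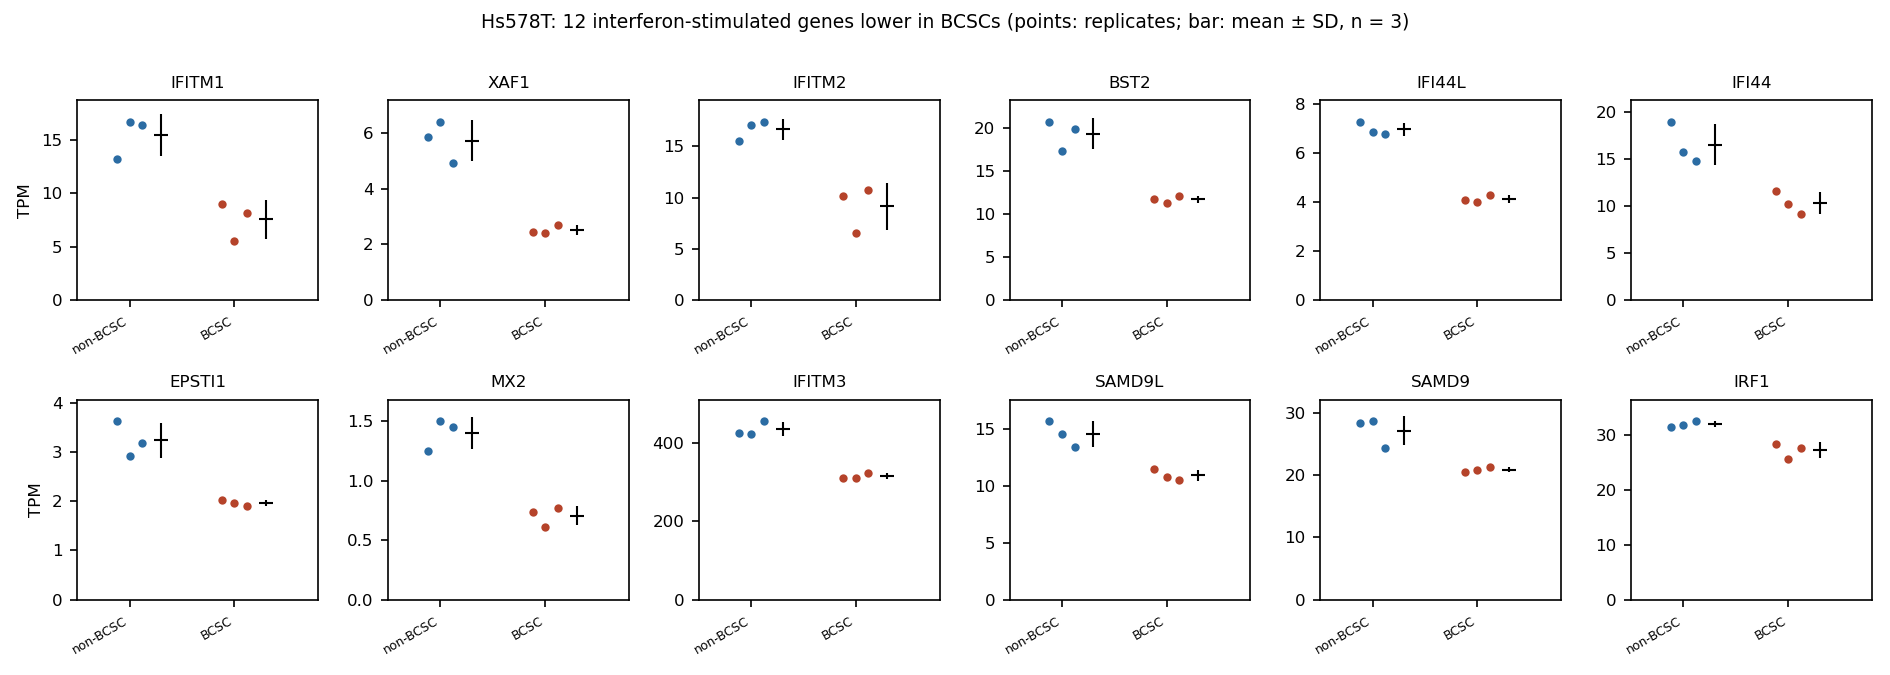
TPM of the 12 ISGs that passed the test in Hs578T, per replicate (points) with mean ± SD (bars, n = 3), on y axes that start at 0. In every panel the 3 BCSC libraries lie below the 3 non-BCSC libraries, from XAF1 at a mean ratio of 0.439 to IRF1 at 0.853.

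Among the antiviral effectors, SAMD9 and SAMD9L, adjacent genes that restrict poxviruses, fell by similar amounts in Hs578T. SAMD9 read 28.3, 28.6 and 24.4 TPM in non-BCSCs against 20.5, 20.8 and 21.3 TPM in BCSCs (log2 difference -0.36 ± 0.07, adjusted p = 0.019). SAMD9L read 15.7, 14.6 and 13.4 TPM against 11.5, 10.8 and 10.5 TPM (log2 difference -0.38 ± 0.07, adjusted p = 0.016). Groups of neither gene overlapped. MX2, a dynamin-like GTPase that blocks the nuclear entry of viral genomes, was lower by a log2 difference of -0.49 (adjusted p = 0.038) from a low level of 1.4 ± 0.133 TPM. Its relative MX1 had a difference of -0.36 and an adjusted p of 0.089. RSAD2 (viperin) was under the minimum. CMPK2, its neighbor in the genome, and ISG20, an RNA exonuclease, were within 0.06 of 0.

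Of the transcription factors of the pathway 1 of 3 tested passed in Hs578T, and of the sensors 0 of 3 did by limma. IRF1, which binds the same kind of promoter element, was the only factor that passed (31.5, 31.9 and 32.5 TPM in non-BCSCs against 28.4, 25.7 and 27.7 TPM in BCSCs, log2 difference -0.22 ± 0.05, adjusted p = 0.038). IRF1 shares 2805 exon bases with an antisense RNA. STAT2 read 45.3, 47.5 and 45.6 TPM against 38.7, 35.6 and 41.8 TPM, with groups that did not overlap and an adjusted p of 0.055. IRF9 differed by -0.06. The RNA sensors DDX58 and IFIH1 (MDA5) and the helicase DDX60 had differences of -0.12, -0.17 and -0.11, with adjusted p of 0.18 or more.

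Other ISG families had no member that passed in Hs578T. Of the IFIT proteins, which bind foreign RNA, IFIT3 came nearest (log2 difference -0.23, adjusted p = 0.054), and the 4 members ranged from -0.35 to -0.13. Of the oligoadenylate synthetases, which activate RNase L, OAS3 and OASL were at -0.16 and -0.28. ISG15, a ubiquitin-like modifier, varied most among replicates, with 29.8, 34.2 and 37.4 TPM in non-BCSCs against 30.7, 41.7 and 22.8 TPM in BCSCs, so the groups overlapped. USP18, the protease that removes ISG15 and dampens receptor signaling, was at 6.62 ± 0.929 TPM in non-BCSCs against 6.75 ± 0.486 TPM in BCSCs. Of the 10 ISGs that passed and had a promoter window, 7 held an exact match of GAAANNGAAA in it, beside 12 of the 19 that did not pass.

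The count in Hs578T depended on single libraries. Without non-BCSC replicate 1, 2 or 3, 6, 6 and 7 ISGs passed, in place of 12. In the same fits 486, 343 and 691 of all genes tested passed, in place of 953. BST2, IFI44, IFI44L, IFITM3 and XAF1 passed in every alternative in which they could be tested, each library left out included. BST2 kept a difference between -0.75 and -0.63.

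Upstream genes of the pathway were followed through lists of ligands, receptors and kinases, sensors and adaptors, and inhibitors with ISG15 enzymes. In Hs578T, 1 of 10 interferon genes was listed, IFNE, with a difference of 0.10 (adjusted p = 0.53). Of 8 receptor and kinase genes tested, IL10RB, a subunit of the interferon-lambda receptor, was lower (40.4 ± 1.47 against 33.9 ± 0.585 TPM, log2 difference -0.25, adjusted p = 0.019). Of 11 sensors and adaptors, 2 were lower, TLR3 (24.5 ± 2.71 against 17.8 ± 0.853 TPM, log2 difference -0.44, adjusted p = 0.019) and STING1 (9.25 ± 0.344 against 5.85 ± 1.39 TPM, log2 difference -0.60, adjusted p = 0.044). Of 5 inhibitors and ISG15 enzymes tested, 0 passed by limma. The ALDH gene ALDH1A3 rose from 289 ± 8.35 to 706 ± 4.32 TPM in the same libraries, and CD44 was at 558 ± 10.1 and 579 ± 12.8 TPM. Of 4 sorting markers tested in HCC70, 0 passed by limma. Their log2 differences were 0.17 for ALDH1A3, 0.13 for ALDH1A1, 0.04 for CD44 and -0.31 for CD24 (adjusted p = 0.18, 0.16, 0.79 and 0.054).

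In HCC70, few ISGs differed between BCSCs and non-BCSCs. All 39 were tested, and 2 passed, both higher in BCSCs (5.13% of the ISGs, beside 2.83% of 13218 genes that passed and 2.28% that passed as higher). The median difference was 0.04 on the log2(TPM + 1) scale, against 0.02 over all genes, and 25 of 39 were above 0. STAT2, the interferon-specific signaling factor, read 53.6, 55.4 and 56.2 TPM in non-BCSCs against 66.5, 64.8 and 67.5 TPM in BCSCs (log2 difference 0.26 ± 0.05, adjusted p = 0.041). OAS3, the largest of the oligoadenylate synthetases, read 51.0, 56.7 and 54.3 TPM against 65.6, 65.8 and 69.4 TPM (log2 difference 0.31 ± 0.06, adjusted p = 0.043). Groups of both genes were apart by more than the spread of replicates. Both calls were lost when any 1 of the 6 libraries was left out, with adjusted p of 0.064 to 0.18, and when libraries were rescaled to median ratios (0.059 for STAT2 and 0.073 for OAS3). Without non-BCSC replicate 1, ISG15 was the only ISG that passed, as lower, beside 270 of 13192 genes. The leukocyte and lysosome marker CD68 was also higher in HCC70 BCSCs (45.4 ± 5.56 against 63.3 ± 3.01 TPM, adjusted p = 0.043). CD14, the other leukocyte marker above 1 TPM, was at 109 ± 12.7 TPM against 87.9 ± 3.42 TPM (log2 difference -0.30, adjusted p = 0.095). The other 4 of 6 leukocyte markers were under 1 TPM, and the list summed to 143 to 164 TPM against 149 to 156 TPM. The part of these markers in the differences was not tested.

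Just short of the threshold in HCC70 were genes in opposite directions. IRF1 read 32.6, 31.9 and 34.9 TPM in non-BCSCs against 40.4, 39.3 and 39.9 TPM in BCSCs (log2 difference 0.26 ± 0.06, adjusted p = 0.053). ISG15 read 159, 97.7 and 100 TPM against 67.2, 70.8 and 54.8 TPM (log2 difference -0.85 ± 0.19, adjusted p = 0.055). The ISG15 difference was the largest in size of the 39, and non-BCSC replicate 1 was above the other two. Also at an unadjusted p under 0.05 (limma) were IFI35, SAMD9, SAMD9L and USP18, all at positive differences, and DDX58 at -0.20. The share of all genes at this unadjusted threshold was not counted for HCC70. The IFIT, IFITM and PARP genes, BST2 and XAF1 had differences between -0.03 and 0.20. IFI27, the ISG of highest level, was at 802 ± 84.5 and 741 ± 57.3 TPM. Of the upstream lists, SOCS3, a feedback inhibitor of cytokine signaling, was the only gene that passed (14.8 ± 0.971 against 21.1 ± 0.827 TPM, log2 difference 0.49, adjusted p = 0.016). Of 6 interferon genes listed, 5 were under 1 TPM in every library, among them IFNB1 at 0 to 0.355 TPM. IFNE was at 2.97 ± 0.515 TPM in non-BCSCs against 2.55 ± 0.71 TPM in BCSCs (log2 difference -0.18, adjusted p = 0.58).

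The difference between BCSCs and non-BCSCs was then compared between the lines in a model of the 12 sorted libraries. Of 34 ISGs in both fits, 16 passed (47.1%), all with a more positive BCSC difference in HCC70 than in Hs578T, beside 7.11% of 11668 genes that passed and 5.62% that passed in that direction. The median of the 34 interaction terms was 0.41, against 0.04 over all genes. Without HCC70 BCSC replicate 1, Hs578T BCSC replicate 2 or Hs578T non-BCSC replicate 2, 10 passed. In the same fits 321, 348 and 291 of all genes tested passed, in place of 830. Line, batch and table coincide here, so an interaction with line cannot be told apart from one with batch.

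Among the 10 of smallest p, 4 stood in opposite order in the lines with groups apart in each. These 10 were picked by the same test, and the share of all genes in such an order was not counted. IRF1, SAMD9 and SAMD9L were short of the threshold in HCC70 by limma (adjusted p = 0.053, 0.11 and 0.13). STAT2 was short of it in Hs578T (limma, adjusted p = 0.055). IRF1 was at -0.22 in Hs578T and 0.26 in HCC70, and the difference was 0.48 ± 0.07 (adjusted p = 0.003). STAT2 was at -0.25 and 0.26 (difference 0.51 ± 0.08, adjusted p = 0.0038). SAMD9 read 245, 207 and 219 TPM in HCC70 non-BCSCs and 260, 253 and 283 TPM in BCSCs, so its groups did not overlap in either line and stood in opposite order (difference 0.61 ± 0.10, adjusted p = 0.0073). SAMD9L behaved likewise, with 53.5, 45.4 and 49.3 TPM against 59.1, 54.4 and 59.6 TPM in HCC70 (difference 0.61 ± 0.10, adjusted p = 0.0062).

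For the next genes the HCC70 groups overlapped. IFITM1 read 258, 256 and 226 TPM in HCC70 non-BCSCs and 256, 272 and 308 TPM in BCSCs, and its difference between lines was the largest of the 34 (1.13 ± 0.20, adjusted p = 0.0085). IFITM2 read 76.7, 107 and 99.6 TPM against 104, 114 and 105 TPM (difference 1.02 ± 0.22, adjusted p = 0.019). XAF1 read 27.5, 20.2 and 25.3 TPM against 25.9, 21.9 and 26.5 TPM (difference 0.96 ± 0.16, adjusted p = 0.007). In these 3 genes the HCC70 fractions could not be told apart at this spread. BST2 read 338, 454 and 480 TPM against 448, 479 and 415 TPM (difference 0.77 ± 0.16, adjusted p = 0.017). IFI44L read 32.5, 29.7 and 32.9 TPM against 30.8, 28.5 and 30.7 TPM (difference 0.56 ± 0.08, adjusted p = 0.0032). MX1 read 54.4, 58.4 and 59.8 TPM against 63.5, 63.0 and 57.4 TPM in HCC70, and in Hs578T it read 1.38, 1.4 and 1.55 TPM against 0.777, 0.968 and 0.967 TPM (difference 0.45 ± 0.09, adjusted p = 0.018). A given log2(TPM + 1) difference of a gene this low in Hs578T understates its fold. ISG15 was the ISG of the most negative interaction term, at -0.73 ± 0.30 (adjusted p = 0.15).

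**Figure D4:**
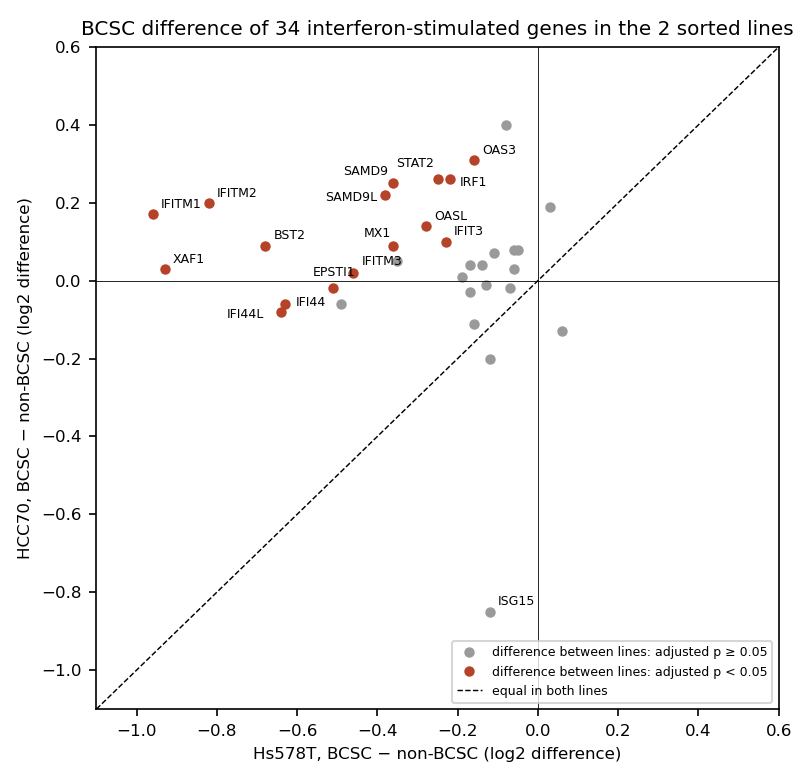
BCSC minus non-BCSC log2 difference in Hs578T (x axis) and HCC70 (y axis) for the 34 ISGs in both fits, on the scale of log2(TPM + 1). The dashed line marks equal differences, and red points passed the test of the difference between lines. All 16 red points lie above the line, with Hs578T values from -0.96 to -0.16, and ISG15 lies below it at -0.85 in HCC70.

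KIF20A depletion in MDA-MB-231 cells left no ISG past the test. Of 34 ISGs tested, 0 passed by limma, as did 0 of 12852 genes (0%), and at an unadjusted p under 0.05 there were 4 ISGs, beside 7.00% of all genes. With edgeR and DESeq2 on recovered reads 0 ISGs passed in each, and 0 and 16 of all genes. The median difference was -0.04 on the log2(value + 1) scale, against 0.00 over all genes. In 4 of the 34 ISGs the groups did not overlap, no larger a share than the 13.0% of all genes tested. IFI44L, OAS1, IRF9, DDX58 and CMPK2 were below the minimum of 1 CPM. IRF9 had at most 3 reads in a library there, and it shares 1544 exon bases on the same strand with another annotated gene, as DDX58 does over 4471 bases. In this table the gene that overlaps IRF9 was itself at means of 0.034 and 0.008 CPM, and the gene that overlaps DDX58 was at 0. How such reads were assigned was not given in the sources used here.

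BST2 had the smallest p of the ISGs in the depletion experiment. It read 161, 158 and 133 CPM in sgCtrl and 116, 113 and 110 CPM in sg1, a log2 difference of -0.40 ± 0.12 (adjusted p = 0.69). Without sgCtrl replicate 3, BST2 was the only ISG that passed (log2 difference -0.49, adjusted p = 0.046). In that fit 144 of 12886 genes passed, against 0 of 12852 with all libraries. IFI6 was also lower in every sg1 library, with 7.26, 7.27 and 6.78 CPM against 5.83, 5.28 and 4.6 CPM (log2 difference -0.38 ± 0.16, adjusted p = 0.69). SAMD9 and PARP14 had groups apart in the other direction. Groups apart were no more frequent among the ISGs than over all genes tested. SAMD9 read 36.5, 33.8 and 41.6 CPM against 48.1, 48.6 and 42.8 CPM (log2 difference 0.31 ± 0.13, adjusted p = 0.69), and PARP14 read 54.2, 52.0 and 53.6 CPM against 62.4, 65.1 and 57.4 CPM (log2 difference 0.21 ± 0.12, adjusted p = 0.71). SAMD9L, at 0.39 with overlapping groups, was the largest positive difference.

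Some ISGs varied widely among replicates of the depletion experiment. IFIT1 read 37.9, 37.7 and 60.5 CPM in sgCtrl and 39.1, 63.5 and 30.5 CPM in sg1, and OASL read 20.0, 13.4 and 16.6 CPM against 11.6, 24.2 and 11.0 CPM. Replicate 2 of sg1 was the highest and replicate 3 the lowest of that group for both genes. The median SD within groups was 0.233 for the ISGs, against 0.189 over all genes tested (log2 scale). In the sg1 library of replicate 3, which was also the shallowest of this experiment at 41424338 reads, 4 of 34 ISGs were above their group mean, and in that of replicate 2 it was 25 of 34. KIF20A was at 91.1 CPM in the former and 145 CPM in the latter, and a relation to the ISG levels was not tested. The median deviation from the group mean in sg1 replicate 3 was -0.13 for the ISGs, against -0.01 over all genes (log2 scale). In sg1 replicate 2 it was 0.07 against 0.01. Interferon genes were at 0 in all sg1 libraries, and at most 0.12 CPM in sum in sgCtrl.

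**Figure D5:**
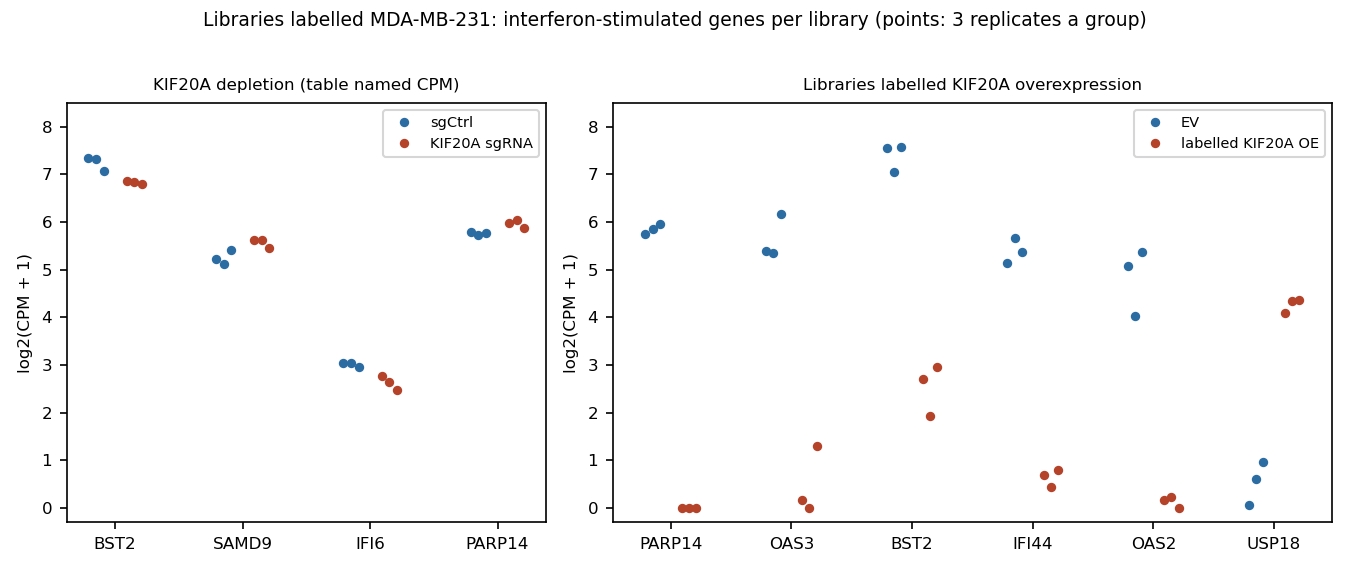
Log2(CPM + 1) of ISGs in single libraries labelled MDA-MB-231, with sgCtrl against sg1 on the left and EV against the libraries labelled KIF20A overexpression on the right (points, 3 replicates a group). On the left the groups lie less than 1 unit apart. On the right, 5 genes fall to below 3 units, with PARP14 at 0, and USP18 rises above 4 units.

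In the libraries labelled KIF20A overexpression, most ISGs were far lower than in EV. Of 34 tested, 30 passed, 29 lower and 1 higher, beside 69.7% of 15265 genes that passed and 23.4% that passed as lower. The median difference of the ISGs was -1.87, against 0.37 over all genes tested on the log2(CPM + 1) scale. Rescaling by the median of ratios brought the median of all genes to 0.026 and that of the ISGs to -2.21, with 30 lower and 1 higher. The median over 37 ISGs was 20.4 to 28.0 CPM in EV libraries and 2.75 to 3.57 CPM in the others. The loss of CD44 and other mesenchymal markers and the presence of CDKN2A and IRS4 move with this difference in all 3 libraries, and their part in it was not tested.

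PARP14 had no read in any of the 3 libraries labelled overexpression, and 52.7, 56.5 and 61.5 CPM in EV. Against a floor of 3 reads per library this is at least 353-fold lower (log2 difference -5.85 ± 0.17, adjusted p = 1e-07). The median of the ISGs stays at -1.87 with PARP14 at its bound. OAS3 read 41.1, 39.5 and 70.6 CPM in EV against 0.125, 0 and 1.45 CPM in the other group (log2 difference -5.15 ± 0.38, adjusted p = 8e-06). OAS2 read 32.6, 15.4 and 40.1 CPM against 0.125, 0.18 and 0 CPM, or 2, 4 and 0 reads (log2 difference -4.69 ± 0.33, adjusted p = 6.7e-06). All 4 oligoadenylate synthetases were lower. BST2 read 187, 132 and 190 CPM against 5.51, 2.84 and 6.75 CPM (log2 difference -4.86 ± 0.27, adjusted p = 1.9e-06), and IFI44 read 34.4, 49.9 and 40.1 CPM against 0.626, 0.361 and 0.75 CPM (log2 difference -4.74 ± 0.21, adjusted p = 5.3e-07). In each of these genes the groups were far apart.

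Families of ISGs were not equally low in these libraries. Among the IFIT genes, IFIT1, IFIT2 and IFIT3 had log2 differences of -1.87, -4.34 and -4.18, while their neighbor IFIT5 stayed at 46.4 ± 8.58 CPM in EV against 40.8 ± 5.33 CPM in the other group. The membrane factors IFITM1, IFITM2 and IFITM3 had log2 differences of -0.79, -1.28 and -2.62, and their sum was 297 ± 45.3 and 70.7 ± 11.8 CPM. The 4 transcription factors were all lower, from IRF7 at -2.73, the factor that amplifies interferon production, to STAT2 at -0.56. Both sensors tested, IFIH1 and DDX60, were lower, at -2.27 and -1.66. IRF7 had the largest spread, with 12.0, 1.4 and 11.3 CPM in the libraries labelled overexpression.

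ISG15 and its enzymes went in different directions there. ISG15 fell from 62.8 ± 9.6 to 10.1 ± 1.26 CPM, while HERC5, the ligase that attaches it, was at 31.5 ± 6.65 and 32.2 ± 7.63 CPM. HERC6, its relative, was lower (17.0 ± 3.68 against 8.53 ± 2.51 CPM, log2 difference -0.93, adjusted p = 0.011). USP18 was the only ISG that passed as higher, with 0.0476, 0.532 and 0.941 CPM in EV against 16.0, 19.2 and 19.6 CPM in the other group (log2 difference 3.72 ± 0.26, adjusted p = 5.5e-06). In reads this was 1, 11 and 16 against 256, 425 and 366, and the difference stayed between 3.48 and 5.31 over 13 alternatives. USP18 in sgCtrl and sg1 cells was at 1.78 ± 0.467 and 1.71 ± 0.0828 CPM. IFI6 had a positive difference of 0.95 with overlapping groups and an adjusted p of 0.053, and EPSTI1 one of 0.45 (adjusted p = 0.08). CMPK2 was below the minimum, with 0, 0 and 2 reads in EV against 23, 10 and 56 reads in the other group.

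Genes of the upstream lists are to be read beside the 69.7% of all genes that passed in the libraries labelled overexpression. Of 7 receptor and kinase genes tested, 2 were higher and 2 lower. IFNAR1, a subunit of the type I interferon receptor, was at 95.2 ± 11.1 and 94.4 ± 5.62 CPM, and IFNLR1, of the interferon-lambda receptor, rose from 3.26 ± 2.07 to 24.3 ± 2.48 CPM. Of 11 sensors and adaptors, 8 were lower and 1 higher, and the cytosolic DNA sensor CGAS fell from 69.4 ± 9.57 to 0.426 ± 0.214 CPM. Of 7 inhibitors and ISG15 enzymes, 5 were lower and 1 higher, among them UBA7, the activating enzyme for ISG15 (43.1 ± 5.55 against 3.08 ± 0.894 CPM). None of the 10 interferon genes was listed in this table, so their transcripts were not analysed here.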

How the data were processed

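Poly-A RNA of 24 libraries from sorted Hs578T and HCC70 cells and from cells labelled MDA-MB-231 was read paired-end on stranded libraries. The submitters' processing notes name GRCh38, HISAT2 2.0.5 and featureCounts 1.5.0-p3, with no settings, and the annotation is not given in the sources used here. The authors deposited TPM values for the sorted lines, which sum to 1000000 per column. For KIF20A depletion they deposited a signal, reads divided by 1 factor per library, which they name CPM and whose columns sum to 977394 to 1028621. For overexpression they deposited CPM. A total of 0 sample columns were left unused.

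The 39 ISGs and the gene lists were chosen with earlier results of these data known. Groups and replicate numbers came from the sample titles and labels, with SG1 to SG3 in the titles read as replicates of 1 guide, which the labels do not state. Each comparison was fitted on all genes whose values averaged 1 or more in its 6 libraries, by limma 3.58.1 (R 4.3.3) with a variance trend on log2(value + 1), two-sided, and p-values were Benjamini-Hochberg adjusted over all genes with a threshold of 0.05. Differences on this scale understate the change of low genes. A model of the 12 sorted libraries tested the interaction of line and fraction. Tables were never compared by a test. Adjusted p-values in the text are from limma unless another tool is named.

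For the sorted lines, whole reads were recovered from ratios between libraries of 1 gene. For libraries labelled MDA-MB-231, values were divided by 1 step per library, the value of 1 read. There 100% of values came out whole within 0.05. On simulated TPM, 98.4% of 2982 genes gave exact reads and the others an exact fraction of them. Recovered depth ranged from 28189500 to 33715701 reads for Hs578T, from 24681218 to 33559417 for HCC70, from 41424338 to 51018667 for depletion and from 15971297 to 22182293 for overexpression. At these depths 3 reads per library were taken as the floor, which covers counting error only.

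Genes with values for each library were the ISGs past the threshold (up to 10 of smallest p in the sorted comparisons and the interaction, and for overexpression the 5 largest changes in each direction), the 3 ISGs of highest TPM in each sorted line, and for depletion those with groups apart. Other values for single libraries (of ISG15, IFIT1, OASL, IRF7 and CMPK2) and the upstream genes given for overexpression were chosen after they were seen. Alternatives were a pseudocount of 0.1, no minimum, a minimum of 5, rescaling by the median of ratios, a replicate block, leaving out each library, and tests of recovered reads by edgeR 4.0.16 and by DESeq2 1.42.0. The fits were tested on simulated data. Promoter windows are RefSeq's for GRCh38.p14, and exon overlaps come from GENCODE 44, which may differ from the authors' annotation. Python 3.11.15 with pandas 2.3.3, numpy 2.4.6 and matplotlib 3.10.9 served for the rest.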

Additional observations from a re-analysis of the deposited data

Results flagged for a closer look

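The difference between BCSCs and non-BCSCs was more positive in HCC70 than in Hs578T for 16 of 34 ISGs, by the limma test of the interaction (adjusted p under 0.05, 12 libraries). On the log2(TPM + 1) scale the differences between lines were IFITM1 (1.13), IFITM2 (1.02), XAF1 (0.96), BST2 (0.77), SAMD9L (0.61), SAMD9 (0.61), IFI44 (0.57), IFI44L (0.56), STAT2 (0.51), EPSTI1 (0.49), IRF1 (0.48), IFITM3 (0.48), OAS3 (0.47), MX1 (0.45), OASL (0.42) and IFIT3 (0.33). In 13 of these 16 the Hs578T difference was negative and the HCC70 difference positive, and in the others, IFI44, IFI44L and EPSTI1, both were negative. Among the 13, the HCC70 differences ran from 0.02 (IFITM3) to 0.31 (OAS3). Of them only STAT2 and OAS3 passed in HCC70 by limma, and both calls were lost when any library was left out. The share of all genes with these signs was not counted. Line and batch cannot be told apart in this comparison. Groups of 3 libraries were not searched for single libraries that lie far from the rest.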

How the results depend on the processing

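The count of ISGs that passed in Hs578T (12) ranged from 6 to 11 with each library left out and from 10 to 17 under the other alternatives. In HCC70 (2) it was 7 by DESeq2, 4 by edgeR, 4 with a minimum of 5, 1 with no minimum, 0 after rescaling by the median of ratios, 0 with a block on the replicate number, and 0 to 1 with each library left out. In the depletion experiment (0) it was 0 to 1 with each library left out and 0 otherwise. In the libraries labelled KIF20A overexpression (30) it was 26 to 32 over all alternatives. The interaction (16) gave 10 to 15 with each library left out and 11 to 16 otherwise. Counts over all genes moved too. In Hs578T (953) they were 343 to 865 with each library left out and 669 to 1806 otherwise. In HCC70 (374) they were 32 to 270 and 128 to 1148, and for depletion (0) 0 to 144 and 0 to 16. For overexpression (10634) they were 8431 to 13255 over all alternatives, and for the interaction (830) 291 to 1225 and 302 to 1094. Among single named ISGs no difference changed its direction. Correlations of same-numbered libraries ran from -0.161 to 0.185, so the numbers were not read as pairs. In the libraries labelled overexpression and in EV every library did correlate best with its own number (0.014 to 0.058), a hint from the data and not from the design. With the block on the replicate number 10 ISGs passed in Hs578T, 0 for depletion, 31 for overexpression and 11 for the interaction. The causes of these changes were not tested.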

Other observations

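Further values of the ISGs stand outside the comparisons above. Within groups, the ISG of largest spread was ISG15 in Hs578T (SD 0.32 on the log2 scale) and in HCC70 (0.31), OASL in the depletion experiment (0.46) and IRF7 in the comparison with EV (0.98). The median SD of the ISGs was 0.086 in Hs578T and 0.095 in HCC70, beside 0.075 and 0.096 over all genes tested. In EV, 10 of 34 ISGs were above their group mean in replicate 2 and 23 of 34 in replicate 3. The median deviations of the ISGs there were -0.11 and 0.13, against 0.0 and 0.03 over all genes (log2 scale).

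ISGs that did not reach the minimum in a table still had reads. HERC5, the ISG15 ligase, had 3, 5 and 5 recovered reads in Hs578T non-BCSCs and 0, 2 and 2 in BCSCs, beside 293 to 438 reads per HCC70 library, 1901 to 2982 per library of the depletion experiment and 496 to 754 per library with EV or the construct labelled overexpression. RSAD2 had 5 to 13 reads in Hs578T libraries and 412 to 545 in HCC70 libraries. In Hs578T, OAS1 read 0.977 ± 0.0515 TPM in non-BCSCs against 0.549 ± 0.0884 TPM in BCSCs, with groups that did not overlap. It was at 0.961 ± 0.139 and 0.523 ± 0.0419 CPM in sgCtrl and sg1 cells. IRF9, which reached 27.1 ± 1.24 TPM (Hs578T) and 121 ± 4.72 TPM (HCC70) among non-BCSCs, had 0 to 3 reads per library for depletion and 10 to 57 for overexpression. The gene that shares its exons was at 4.82 CPM in EV, at a sum with IRF9 of 6.89 CPM, while in sgCtrl and sg1 the sums were 0.069 and 0.022 CPM.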
